A study of Mus musculus with 22 samples.

Results

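The regions described are the 50 kb windows of mouse chromosome 7 (mm10) that start from 13 Mb to below 140 Mb, without those that start from 59 to below 63 Mb. The proximal end, the imprinted domain of the Prader-Willi type and the distal end with its imprinted genes are thereby left out. The rule took 2460 of the 54520 windows in the tables, and it used positions only, no measured value. The windows were counted in 22 libraries from whole testis: chromatin immunoprecipitations for γH2AX and for the histone variant H3.3, and input DNA. The γH2AX libraries came from testes of 4-week-old mice. The 3Rb group was the F1 of B6.SPRET7MOLF12 and RBF/Dnj, heterozygous for 3 Robertsonian translocations (3 libraries). The 1Rb_M group was the F1 of CBy.RBF-Rb(8.12)5Bnr/J and B6.SPRET7MOLF12, heterozygous for 1 (3 libraries). The 1Rb_P group was the F1 of C57BL/6J and CBy.RBF-Rb(8.12)5Bnr/J, also heterozygous for 1 (3 libraries), and 1 library came from a C57BL/6J control (B6). The H3.3 libraries came from 6-week-old mice, 3 each of 3Rb, of 1Rb (the cross used for 1Rb_M) and of the B6.SPRET7MOLF12 control, called Cg. Single input libraries carried the names 1Rb_M (4 weeks), Cg (6 weeks) and B6 (4 weeks), and an input of 3Rb was not analysed here. For the 1Rb_M input the title and the strain field of the labels differ, since the strain given is that of 1Rb_P; its title was used. B6.SPRET7MOLF12 is the only parent named for a foreign chromosome 7, and it is a parent of 3Rb, 1Rb_M, 1Rb and Cg but not of 1Rb_P or B6. The labels do not give how much of chromosome 7 is of SPRET origin. Because each group is also its own cross, strain of origin on chromosome 7, the number of translocations and the rest of the genetic background cannot be told apart between groups.

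A Robertsonian translocation joins acrocentric chromosomes at their centromeres, and in the known karyotype of RBF/Dnj chromosomes 1, 3, 8, 9, 12 and 14 are joined. Chromosome 7 is not among them, so it was set against the other 12 unjoined autosomes (2, 4, 5, 6, 10, 11, 13 and 15 to 19). γH2AX is the phosphorylated form of the histone H2AX; in male meiosis it marks DNA breaks, chromatin that has failed to pair and, most heavily, the X and Y chromosomes. H3.3 is a variant of histone H3 that is deposited outside DNA replication, at transcribed genes and regulatory elements and, in spermatocytes, on the sex chromosomes. Chromosome 7 is gene-rich and carries large families of tandem genes, among them olfactory, vomeronasal and Mas-related receptors, kallikreins, pregnancy-specific glycoproteins, cytochromes P450 of family 2 and zinc finger genes. The members overlapped 1688 protein-coding genes, a mean of 1.114 genes a window, which ranked 2 of the 13 unjoined autosomes. There was no protein-coding gene in 32.4% of the members, against 41.8% of the windows of the other 12, and 10.6% of the members overlapped 3 or more genes, against 5.84%.

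Promoters are shown for the windows on which the results turn, each as the 250 bases before the gene start, 5′ to 3′ on the gene's strand, from RefSeq on GRCm38.p6 (mm10). The first 3 belong to gene models around 38 Mb, where Cg had more H3.3 counts than either cross. They are near copies of one another, and the capitals mark bases that differ from Gm6605 in a global alignment. Gm6605 lies at chr7:38452220-38452469 (minus strand), Gm21136 at chr7:38869799-38870048 (minus strand, 97.6% identical) and Gm21115 at chr7:38725528-38725777 (minus strand, 90.0% identical).
Gm6605: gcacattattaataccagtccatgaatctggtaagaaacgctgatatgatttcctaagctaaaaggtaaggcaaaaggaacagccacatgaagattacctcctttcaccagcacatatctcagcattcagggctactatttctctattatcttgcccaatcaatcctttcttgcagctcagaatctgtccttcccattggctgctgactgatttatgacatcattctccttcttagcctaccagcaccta
Gm21136: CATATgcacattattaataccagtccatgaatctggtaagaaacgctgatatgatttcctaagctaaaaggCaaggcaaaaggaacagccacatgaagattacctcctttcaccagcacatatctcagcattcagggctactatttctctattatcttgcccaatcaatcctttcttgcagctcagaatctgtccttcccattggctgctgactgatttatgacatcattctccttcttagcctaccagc
Gm21115: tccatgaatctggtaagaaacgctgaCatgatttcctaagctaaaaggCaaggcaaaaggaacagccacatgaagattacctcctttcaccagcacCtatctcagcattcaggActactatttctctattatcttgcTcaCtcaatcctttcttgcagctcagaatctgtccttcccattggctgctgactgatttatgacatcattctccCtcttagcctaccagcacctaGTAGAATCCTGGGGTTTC

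The next pair shows a cytochrome P450 gene whose window was lower in both marks in 3Rb, Cyp2b13 at chr7:26061245-26061494, beside its near copy Cyp2b9 at chr7:26173159-26173408, whose window was not called in H3.3 (both plus strand, 99.2% identical, with capitals at the 2 bases of Cyp2b9 that differ). The third set is from the Obox genes, which encode homeobox proteins of the oocyte and early embryo, where 1Rb was higher than Cg in H3.3. Obox1 lies at chr7:15547007-15547256 and Obox5 at chr7:15750120-15750369 (both plus strand, 91.2% identical, capitals at differing bases).
Cyp2b13: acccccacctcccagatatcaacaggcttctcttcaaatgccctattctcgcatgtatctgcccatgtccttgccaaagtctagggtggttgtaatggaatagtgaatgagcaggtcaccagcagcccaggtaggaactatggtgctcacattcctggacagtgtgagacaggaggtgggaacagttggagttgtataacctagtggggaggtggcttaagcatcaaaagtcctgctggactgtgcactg
Cyp2b9: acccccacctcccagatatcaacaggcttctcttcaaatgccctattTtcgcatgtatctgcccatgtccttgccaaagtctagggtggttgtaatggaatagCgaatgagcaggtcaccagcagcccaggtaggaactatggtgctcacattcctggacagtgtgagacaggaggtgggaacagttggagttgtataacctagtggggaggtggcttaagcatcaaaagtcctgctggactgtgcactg
Obox1: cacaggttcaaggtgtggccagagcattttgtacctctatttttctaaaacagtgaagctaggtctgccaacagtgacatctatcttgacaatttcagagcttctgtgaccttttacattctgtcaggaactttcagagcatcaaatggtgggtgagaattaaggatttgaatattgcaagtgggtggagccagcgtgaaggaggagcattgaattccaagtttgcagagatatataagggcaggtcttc
Obox5: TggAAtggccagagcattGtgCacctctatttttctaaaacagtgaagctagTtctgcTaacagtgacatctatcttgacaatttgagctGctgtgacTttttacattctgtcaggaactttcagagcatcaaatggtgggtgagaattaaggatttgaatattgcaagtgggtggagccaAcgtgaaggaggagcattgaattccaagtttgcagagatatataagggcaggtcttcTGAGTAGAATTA

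The last 3 promoters share no run of 50 bases with the promoter of another gene and are shown with CG dinucleotides in capitals, because they stand for windows that moved in other ways. 1600014C10Rik at chr7:38182967-38183216 (plus strand, 8 CG, 55.2% G and C) is the window highest in γH2AX and most changed in H3.3. Wnt11 at chr7:98834862-98835111 (plus strand, 37 CG, 70.8% G and C) and Cfap46 at chr7:139683816-139684065 (minus strand, 13 CG, 62.0% G and C) lie in windows that were lower in γH2AX in 3Rb.
1600014C10Rik: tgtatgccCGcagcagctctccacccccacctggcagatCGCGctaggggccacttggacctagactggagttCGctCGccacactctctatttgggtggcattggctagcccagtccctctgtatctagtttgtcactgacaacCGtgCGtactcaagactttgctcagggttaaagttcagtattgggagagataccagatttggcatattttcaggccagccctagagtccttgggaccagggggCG
Wnt11: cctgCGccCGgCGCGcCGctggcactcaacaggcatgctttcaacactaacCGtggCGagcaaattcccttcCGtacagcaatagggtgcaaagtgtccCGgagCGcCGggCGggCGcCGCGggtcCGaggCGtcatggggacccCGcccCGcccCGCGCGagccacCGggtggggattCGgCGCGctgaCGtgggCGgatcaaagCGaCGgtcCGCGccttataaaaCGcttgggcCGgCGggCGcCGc
Cfap46: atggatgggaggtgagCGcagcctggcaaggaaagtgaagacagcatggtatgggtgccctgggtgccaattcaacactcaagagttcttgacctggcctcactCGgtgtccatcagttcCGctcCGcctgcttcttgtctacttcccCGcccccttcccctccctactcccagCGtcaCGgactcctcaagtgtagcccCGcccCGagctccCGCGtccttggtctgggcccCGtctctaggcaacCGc

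Total counts ran from 21535147 to 56385465 in γH2AX libraries, from 41278440 to 128348440 in H3.3 libraries and from 11876426 to 51651953 in inputs. The members held 2.99 to 3.75% of γH2AX counts, 4.33 to 4.55% of H3.3 counts and 4.38 to 4.47% of input counts. The median member window held 263 to 744 counts in γH2AX libraries, 634 to 2057 in H3.3 libraries and 216 to 935 in inputs, so counting error alone was 2.20 to 6.80% of a window's value. The X chromosome took 12.3% of counts in γH2AX 1Rb_M replicates 1 and 2, against 17.7 to 18.9% in the other replicated γH2AX libraries and 20.6% in B6. Sums, window counts and the values of the last stretch that involve 1Rb_M are also given without these 2 libraries, which leaves 1Rb_M as a single library whose spread is assumed to be that of the other groups. The whole-chromosome enrichment differences, gene classes, gene lists, band medians, overlaps with H3.3 and promoter shares are not. The labels do not say that replicates are separate animals, and the spread on which the p-values rest may be technical.

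H3.3 followed the genes of chromosome 7, and γH2AX did so hardly at all. Enrichment here is the log2 ratio of a mark to the pooled inputs, each scaled to its library, as a mean over the mark's 9 replicated libraries. The highest H3.3 was in the window of Kmt2b, a histone methyltransferase, and Zbtb32, a zinc finger repressor, at a log2 enrichment of 1.31. The window of Cic and Pafah1b3 came next (1.17), then a window without a protein-coding gene (chr7:73100001-73150000, 1.16). Windows of Rsph6a and Dmpk (1.13), of the kinase Taok2 (1.12) and of Fbrs (1.11) followed. The lowest H3.3 was at Scgb2b13-ps, a secretoglobin pseudogene (-1.01), and at Vmn1r116 and Vmn1r117, vomeronasal receptors (-1.003). The median log2 enrichment of H3.3 was -0.37 in member windows without a gene, -0.01 in those with 1 or 2 genes and 0.57 in those with 3 or more. The medians of γH2AX in the same classes were -0.14, -0.13 and -0.15. γH2AX was highest at 1600014C10Rik (0.57), then at Pde3b, a cyclic nucleotide phosphodiesterase (0.39), Sbf2 (0.38) and Akap13 (0.37). It was lowest at Scgb2b13-ps (-0.79) and Scgb2b33 (-0.67), which were at -0.33 and -0.34 in the single γH2AX library of B6. Over the replicated libraries Scgb2b13-ps ran from -1.16 to -0.39 in γH2AX and from -1.41 to -0.55 in H3.3. The 1600014C10Rik window was at -0.32 in the single γH2AX library of B6. Its inputs also differed, with a scaled ratio of 1.92 for 1Rb_M to B6, so its level over pooled inputs may hold a difference in DNA. Across the 2458 member windows, which share libraries and the same inputs, Pearson's r between H3.3 and the number of genes was 0.52, and between γH2AX and the number of genes -0.01. The r between H3.3 and γH2AX was 0.298 over members, against -0.043 over 28434 windows of the other unjoined autosomes.

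Over its whole length, chromosome 7 carried less γH2AX relative to input than the other unjoined autosomes in every library, and least in 3Rb. The log2 enrichment of the members relative to the other 12 was -0.190, -0.206 and -0.187 in the 3Rb libraries, -0.048, -0.081 and -0.106 in 1Rb_M, -0.120, -0.148 and -0.151 in 1Rb_P, and -0.106 in B6. The 3 groups did not overlap: 3Rb was lowest, 1Rb_M highest and 1Rb_P between them, with B6 level with the lowest 1Rb_M library. The group means were -0.194 ± 0.0097 in 3Rb, -0.079 ± 0.029 in 1Rb_M and -0.140 ± 0.017 in 1Rb_P (SD, n = 3 each), or 0.874, 0.947 and 0.908 on the linear scale. Of the unjoined autosomes, chromosome 7 was lowest, or lowest but for chromosome 2, in each of these γH2AX libraries. The differences were -0.116 for 3Rb against 1Rb_M, -0.055 for 3Rb against 1Rb_P and 0.061 for 1Rb_M against 1Rb_P, each with p = 0.1 in an exact two-sided permutation test, the smallest p that 3 against 3 allows (adjusted p = 0.10 over the 3). The share of the unjoined autosomes' counts that fell on the members shows the same on the counts themselves: 6.67% in 3Rb, 7.21% in 1Rb_M, 6.94% in 1Rb_P and 7.09% in B6, against 7.52% in the 1Rb_M input, 7.42% in the Cg input and 7.58% in the B6 input. H3.3 was near 0 on this scale, at -0.006 ± 0.001 in 3Rb, 0.015 ± 0.016 in 1Rb and 0.008 ± 0.022 in Cg (SD, n = 3 each). The H3.3 differences were 0.007 for 1Rb against Cg (exact p = 0.8), -0.014 for 3Rb against Cg (exact p = 0.3) and -0.021 for 3Rb against 1Rb (exact p = 0.1, adjusted p = 0.30). The plot of enrichment by library shows these values.

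**Figure D1:**
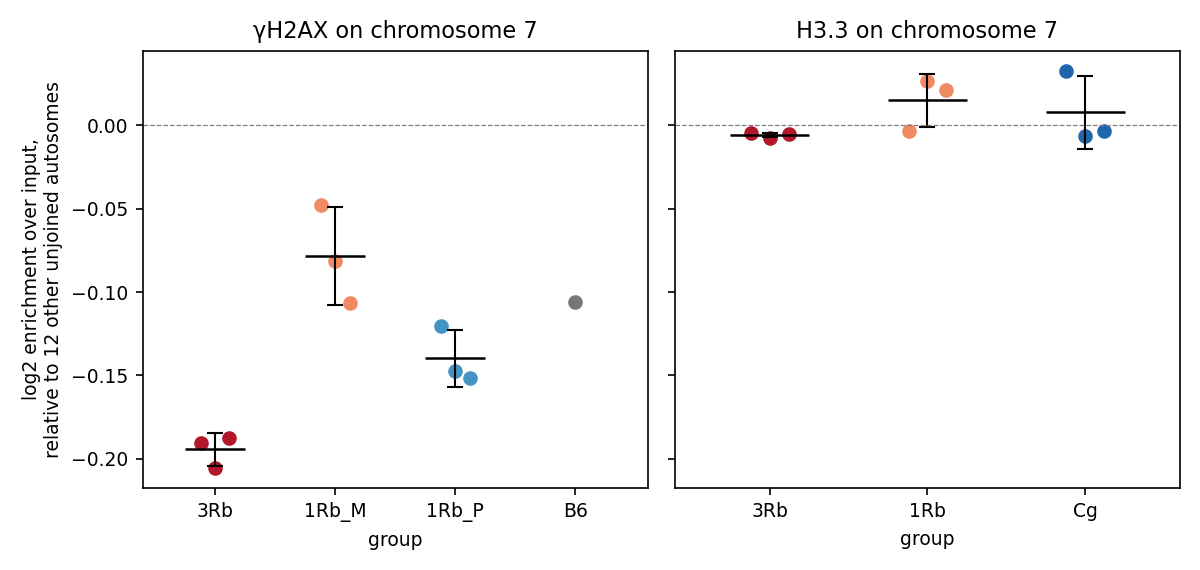
Log2 enrichment over input of chromosome 7 relative to the 12 other unjoined autosomes (y axis), by group (x axis), for γH2AX and H3.3; each point is 1 library and the black line the group mean. The 3 γH2AX 3Rb libraries sit between -0.206 and -0.187, below all 1Rb_M, 1Rb_P and B6 libraries, while H3.3 lies close to 0 in all groups.

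In the sum of counts over each chromosome, chromosome 7 was the lowest of the 19 autosomes in γH2AX of 3Rb against 1Rb_M. The log2 difference was -0.13 ± 0.020 (SE), a fold of 0.913, with an adjusted p of 0.000238 in edgeR's quasi-likelihood test. Against 1Rb_P it was -0.064, a fold of 0.957, second lowest after chromosome 11 (adjusted p = 0.0207, edgeR). In 1Rb_M against 1Rb_P chromosome 7 was the highest of the 19, at 0.067, a fold of 1.05 (adjusted p = 0.0318, edgeR). That last call was lost in 5 of the 9 fits that leave out a single library: 1Rb_M replicate 1 (adjusted p = 0.14) or 2 (0.109), 1Rb_P replicate 2 (0.152) or 3 (0.123) and 3Rb replicate 2 (0.052). It was also lost in DESeq2 (adjusted p = 0.0705), with library totals (0.0714) and with a replicate block (0.0552). Without 1Rb_M replicates 1 and 2 the difference of 3Rb from the single remaining 1Rb_M library was -0.0786, and that of this library from 1Rb_P was 0.0146. For 3Rb against 1Rb_P the call was lost in DESeq2 (adjusted p = 0.0561), with library totals (0.332), without 1Rb_P replicate 1 (0.0753) and without 3Rb replicate 1 (0.0522) or 2 (0.0659). In H3.3 the sums differed by 0.017 in 1Rb against Cg (adjusted p = 0.513), by -0.011 in 3Rb against Cg (adjusted p = 0.739) and by -0.028 in 3Rb against 1Rb (adjusted p = 0.441, all edgeR), so no change in H3.3 over the whole chromosome was called.

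γH2AX was lower in 3Rb than in 1Rb_M over much of chromosome 7, window by window. A window is called where edgeR's quasi-likelihood test, fitted on all windows of the genome, gives an adjusted p under 0.05. Of the 2458 member windows tested, 1052 were lower and 68 higher in 3Rb. The lower ones are 42.8% of the members, against 20.2% of all windows and 22.3% of those of the other unjoined autosomes, where single chromosomes had 11.5 to 37.4%. Higher windows made up 17.9% of all windows and 13.2% on the other unjoined autosomes. The median log2 difference was -0.13 in members and -0.006 on the other unjoined autosomes, and 75.4% of the members lay below 0. Lower windows formed 139 separate regions, the longest with 69 windows, and higher ones formed 38. Without 1Rb_M replicates 1 and 2 the counts were 871 lower and 383 higher, against the single library that remains.

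Against 1Rb_P, which has no B6.SPRET7MOLF12 parent, γH2AX in 3Rb was lower in 482 member windows and higher in 83 (251 and 28 in DESeq2). These lower windows are 19.6% of the members, against 12.8% of all windows and 13.6% of those of the other unjoined autosomes. Of these, single chromosomes ranged from 5.53 to 22.6%, and chromosome 7 ranked 3 of 13. The median was -0.06, with 66.3% of the members below 0. Higher windows were 10.1% of all windows and 5.66% on the other unjoined autosomes. Both comparisons share the 3Rb libraries, so their calls are not independent. Leaving out 1Rb_P replicate 1 gave 305 lower windows, and leaving out 1Rb_M replicates 1 and 2 together, which changes the estimate of spread, gave 729 lower and 230 higher.

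The median γH2AX difference of 3Rb was below 0 in member windows of every gene content. In 3Rb against 1Rb_M, 281 of 796 members without a protein-coding gene were lower (35.3%, against 14.0% on the other unjoined autosomes), with a median log2 difference of -0.11 against 0.03. Of members with 1 or 2 genes, 614 of 1401 were lower (43.8% against 25.5%), with a median of -0.13 against -0.03. Of members with 3 or more genes, 157 of 261 were lower (60.2% against 48.7%), with a median of -0.21 against -0.15. In 3Rb against 1Rb_P the lower members were 69 without a gene (8.67% against 6.80%), 286 with 1 or 2 genes (20.4% against 15.9%) and 127 with 3 or more (48.7% against 39.5%). The member medians of these classes were -0.035, -0.064 and -0.160. All lay within the range of single other unjoined autosomes, whose lowest medians were -0.050, -0.072 and -0.228. Against 1Rb_M those lowest medians were -0.011, -0.111 and -0.277. There only the members with 3 or more genes lay within the range. The enrichment of members without a gene relative to such windows elsewhere was -0.207 ± 0.0100 in 3Rb, -0.077 ± 0.026 in 1Rb_M and -0.151 ± 0.018 in 1Rb_P (SD, n = 3 each), and these groups did not overlap.

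The single windows with the smallest adjusted p show the size of these differences. Values are CPM, the counts scaled to the library size with TMM factors, replicate by replicate. In the window of Cyp2b13, a cytochrome P450 gene (chr7:26050001-26100000), γH2AX was 7.3, 7.1 and 7.7 CPM in 3Rb, 12.6, 12.7 and 11.1 in 1Rb_M and 11.7, 10.6 and 10.8 in 1Rb_P. All 3Rb libraries lay below all others, with log2 differences of -0.72 against 1Rb_M (adjusted p = 2.68e-08) and -0.58 against 1Rb_P (adjusted p = 1.78e-06, edgeR). In the Obox region the top window (chr7:15050001-15100000) had 11.2, 10.5 and 11.3 CPM in 3Rb and 18.8, 18.7 and 14.8 in 1Rb_M. This is a log2 difference of -0.66 (adjusted p = 9.13e-09, edgeR) at the head of a region of 21 lower windows, and the Obox3 window differed by -0.59 from 1Rb_P (adjusted p = 2.08e-07, edgeR). These windows hold near copies of a gene, whose reads may be shared between copies. The 1Rb_M input was also past 1.5-fold above the B6 input over chr7:14950001-15100000, which includes the top Obox window. An input of 3Rb was not analysed here, and the part of input DNA in these differences was not tested.

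Lower windows outside such families had similar sizes. Cfap46, a protein of the cilium and flagellum (chr7:139650001-139700000), had 10.5, 11.4 and 10.6 CPM of γH2AX in 3Rb, 16.2, 14.4 and 16.2 in 1Rb_M and 14.0, 14.0 and 13.5 in 1Rb_P. The groups of 3Rb and 1Rb_M did not overlap, and the log2 difference was -0.53 (adjusted p = 1.23e-07, edgeR). Wnt11, a secreted Wnt ligand (chr7:98800001-98850000), had 11.3, 10.8 and 10.5 CPM in 3Rb, 16, 14.2 and 16.9 in 1Rb_M and 14.3, 15.1 and 13.3 in 1Rb_P, again without overlap (-0.53 against 1Rb_M, adjusted p = 2.48e-07, edgeR). Pcsk6, a proprotein convertase (chr7:65950001-66000000), had 9.3, 9.6 and 9.4 CPM in 3Rb, 14.4, 13.1 and 14.1 in 1Rb_M and 12.9, 14.0 and 12.7 in 1Rb_P. It led the longest run of lower windows, with differences of -0.55 against 1Rb_M (adjusted p = 2.03e-07) and -0.48 against 1Rb_P (adjusted p = 2.71e-06, edgeR). The window of Gramd1a and Hpn was likewise lower against 1Rb_M (-0.57), and those of Sipa1l3 and Dpf1 (-0.56), Aplp1 and Nfkbid (-0.55) and Ttc23 and Synm (-0.43) were lower against 1Rb_P.

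Some windows had more γH2AX in 3Rb. Prmt3, an arginine methyltransferase (chr7:49800001-49850000), had 16.8, 16.4 and 16.2 CPM in 3Rb, 12.5, 14.5 and 12.4 in 1Rb_M and 12.3, 12.3 and 11.7 in 1Rb_P. All 3Rb libraries were above the rest, by 0.32 against 1Rb_M (adjusted p = 9.70e-05) and 0.44 against 1Rb_P (adjusted p = 1.94e-06, edgeR). Herc2, a ubiquitin ligase (chr7:56100001-56150000), had 19.7, 18.3 and 17.4 CPM in 3Rb, 15.1, 14.7 and 14.2 in 1Rb_M and 15.2, 15.2 and 15.6 in 1Rb_P, a difference of 0.33 against 1Rb_M (adjusted p = 4.32e-05, edgeR). Its neighbour Oca2, a melanosome transporter, was higher by 0.31 against 1Rb_P. These windows lie close to the left-out imprinted domain. In the band from 53 Mb, 30 of 120 windows were higher in 3Rb than in 1Rb_M and 0 lower, with a median of 0.13. Against 1Rb_P 25 were higher and 0 lower, with a median of 0.12. Higher windows were 17.9% of all windows and 13.2% on the other unjoined autosomes against 1Rb_M, and 10.1% and 5.66% against 1Rb_P. Of 144 bands of 10 Mb on the other unjoined autosomes, 10 had a higher median against 1Rb_M and 3 against 1Rb_P. 1600014C10Rik had 37.6, 39.2 and 41.2 CPM in 3Rb, 29.8, 27.3 and 30.6 in 1Rb_M and 29.5, 26.8 and 27.2 in 1Rb_P, differences of 0.43 (adjusted p = 0.0299) and 0.50 (adjusted p = 0.0186, edgeR). The inputs differed in this window too, by a ratio of 1.92 for 1Rb_M to B6. An input of 3Rb was not analysed here, so the part of input DNA in this rise was not tested. The plot of CPM in named windows shows the libraries one by one.

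**Figure D2:**
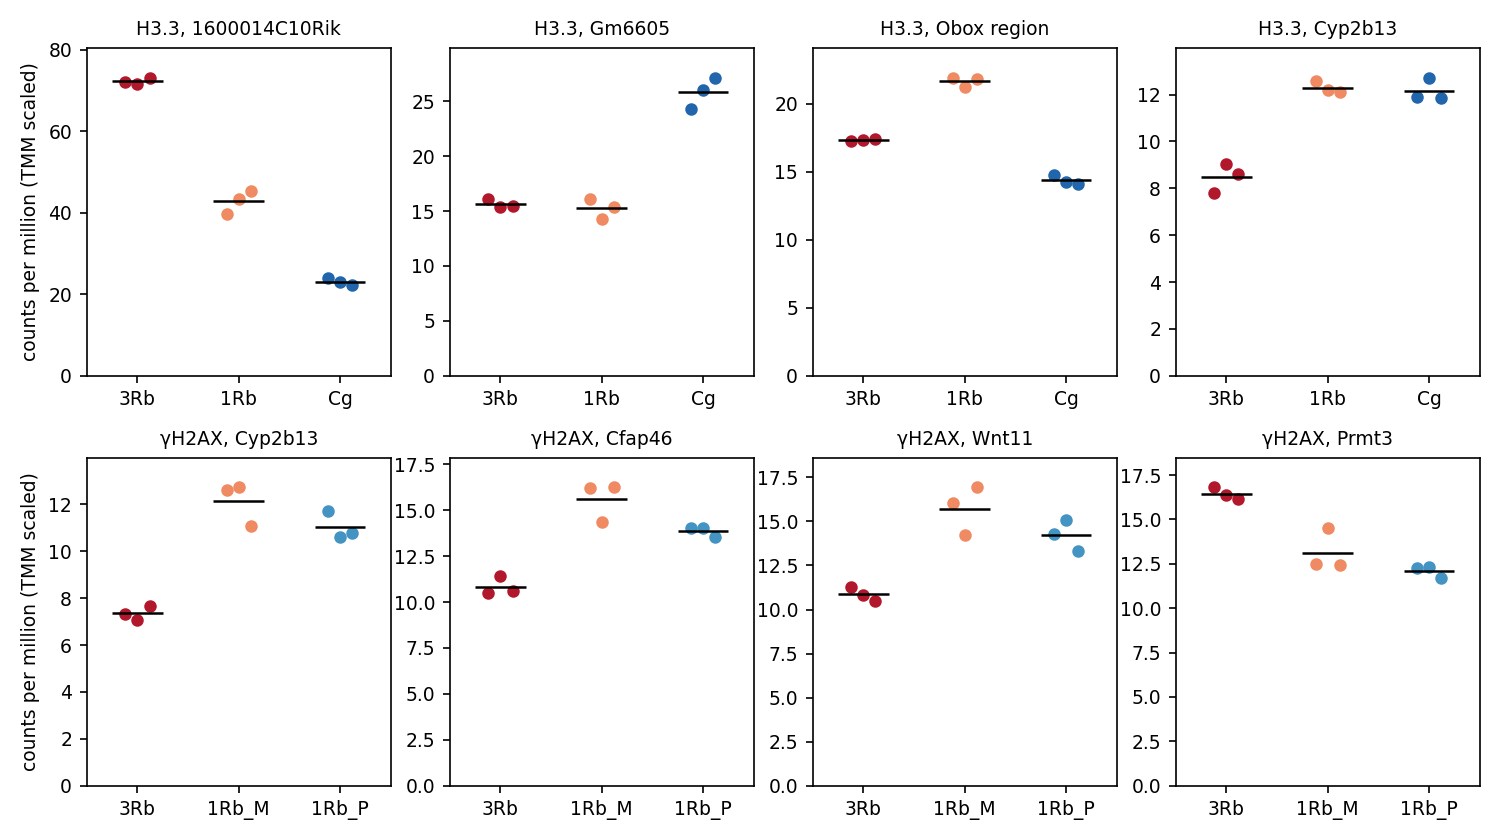
TMM-scaled CPM (y axis, from 0) in single libraries, by group (x axis), for H3.3 (upper) and γH2AX (lower) in 7 named windows; black lines are group means. H3.3 at 1600014C10Rik lies between 71.7 and 73.2 CPM in 3Rb, above 1Rb and Cg, and γH2AX at Cyp2b13, Cfap46 and Wnt11 is lower in each 3Rb library than in any 1Rb_M or 1Rb_P library.

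By gene list, the share of windows lower in γH2AX in 3Rb went up to 91.7% against 1Rb_M (kallikreins) and 58.3% against 1Rb_P (kallikreins), and was 0% in both for Mas-related receptors, beside 42.8% and 19.6% of all members. Differences between lists, or between a list and the other members, were not tested, and the lists were not matched for gene number. Of members with 3 or more genes, 60.2% were lower against 1Rb_M and 48.7% against 1Rb_P. Kallikreins are secreted serine proteases in a tandem cluster, and 11 of their 12 windows were lower in 3Rb than in 1Rb_M, with 7 lower than in 1Rb_P. The window of Klk15 (chr7:43900001-43950000) had 8.7, 9.2 and 9.95 CPM in 3Rb, 13.5, 13.2 and 13.1 in 1Rb_M and 12.3, 11.7 and 12 in 1Rb_P, so 3Rb lay below both (-0.51, adjusted p = 1.35e-06, and -0.37, adjusted p = 0.000286, edgeR). Of 20 windows with spermatid and sperm genes, 15 were lower than in 1Rb_M and 11 lower than in 1Rb_P. They include Tex101, a germ-cell surface protein (-0.42 against 1Rb_M), Catsperg1, a subunit of the sperm calcium channel (-0.39 and -0.41), and Gapdhs, the sperm form of a glycolytic enzyme (-0.38 and -0.36).

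Of 28 windows with genes of meiosis and DNA repair, 15 were lower against 1Rb_M and 15 lower with 1 higher against 1Rb_P. Pold1, the catalytic subunit of DNA polymerase delta (chr7:44500001-44550000), had 11, 11.8 and 10.7 CPM in 3Rb, 16.2, 14.3 and 16.9 in 1Rb_M and 15.8, 15.3 and 13.9 in 1Rb_P, differences of -0.50 (adjusted p = 7.1e-07) and -0.42 (adjusted p = 1.67e-05, edgeR). Ercc1, a subunit of the excision repair nuclease (-0.45), and Xrcc1, a scaffold of single-strand break repair (-0.36), were also lower against 1Rb_M. Of 13 chromatin windows 8 were lower against 1Rb_M and 6 against 1Rb_P. In the Kmt2b window (chr7:30550001-30600000) γH2AX was 13.1, 13.4 and 12.5 CPM in 3Rb, 17.9, 15.5 and 19 in 1Rb_M and 16.1, 16.9 and 15.8 in 1Rb_P (-0.43 against 1Rb_M, adjusted p = 3.69e-06, edgeR). Windows with genes of the ribosome and glycolysis were lower in 8 of 14 against 1Rb_M and 6 of 14 against 1Rb_P, with the ribosomal protein gene Rps16 at -0.39. Of 14 windows with genes of somatic testis cells, 9 were lower against 1Rb_M and 8 against 1Rb_P, with Apoe, a lipid carrier, at -0.37.

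P450 windows were lower in 11 and higher in 1 of 15 against 1Rb_M, and lower in 5 against 1Rb_P. Zinc finger windows were lower in 39 and 21 of 74, with Zfp296 at -0.47 against 1Rb_M, and windows of pregnancy-specific glycoproteins and Ceacam adhesion proteins in 13 and 6 of 29, with 1 higher against 1Rb_P. Vomeronasal receptor windows were lower in 33 of 98 against 1Rb_M and in 16 against 1Rb_P, with 3 higher in each. Nlrp genes, of the innate immune and oocyte family, were lower in 3 of 14 windows against 1Rb_M and in 0 against 1Rb_P. Olfactory receptors, which bind odorants, were lower in 3 of 92 against 1Rb_M, Olfr520 at -0.33 among them, and in 0 against 1Rb_P. The median log2 difference over the olfactory windows was -0.02 against 1Rb_M and 0.08 against 1Rb_P, beside -0.13 and -0.06 over all members. Mas-related receptors, which serve sensory neurons and mast cells, were called in 0 of 17 windows against 1Rb_M. Against 1Rb_P, 4 of 17 were higher (23.5%, beside 3.38% of all members and 10.1% of all windows). Mrgprb2 was higher by 0.25 there (adjusted p = 0.0191, edgeR). Of 250 windows inside genes of at least 300 kb, 103 were lower (41.2%) and 10 higher (4%) against 1Rb_M. Against 1Rb_P 35 were lower (14%) and 15 higher (6%). Over all members 42.8% were lower and 2.77% higher against 1Rb_M, and 19.6% lower and 3.38% higher against 1Rb_P.

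**Figure D3:**
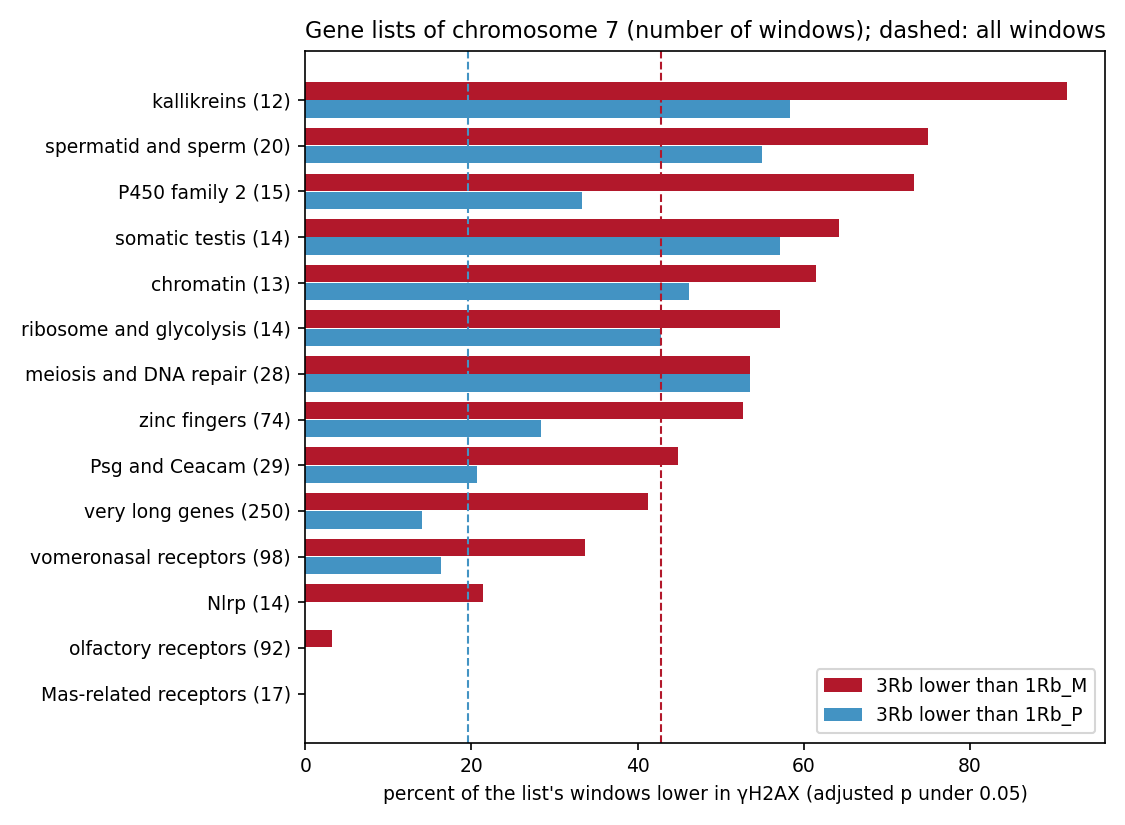
Percent of each list's windows that were lower in γH2AX in 3Rb (x axis) for 14 gene lists of chromosome 7 (y axis, number of windows in brackets), against 1Rb_M in red and 1Rb_P in blue; dashed lines give the percent over all members, 42.8 and 19.6. Kallikrein windows stand highest against 1Rb_M, with 11 of 12, and Mas-related receptor windows lowest, with 0 of 17.

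Between the crosses with 1 translocation, whose other parents differ, γH2AX in 1Rb_M was higher than in 1Rb_P in 20 member windows and lower in 0. The 20 are 0.814% of the members, against 0.299% of all windows and 0.235% of those of the other unjoined autosomes, where 1.06% and 0.843% were lower. At an unadjusted p under 0.05 edgeR gave 558 windows in either direction. DESeq2 called 0 windows, with 261 in either direction at an unadjusted p under 0.05. Chst15, a sulfotransferase of chondroitin chains (chr7:132300001-132350000), had 14.4, 14.8 and 14.1 CPM in 1Rb_M and 12.1, 12.2 and 10.9 in 1Rb_P, without overlap (0.30, adjusted p = 0.0178, edgeR), with 10.8, 10.2 and 10.3 in 3Rb. Further windows were those of Adgra1, an adhesion receptor (0.29, adjusted p = 0.0239), Ebf3, a transcription factor (0.22, adjusted p = 0.0379), Otog, a protein of the inner ear (0.29, adjusted p = 0.0382), and Dock1, an exchange factor for Rac (0.25, adjusted p = 0.0424, all edgeR). The count depends on single libraries: it was 0 without 1Rb_M replicate 1 or without 1Rb_P replicate 2 or 3, 220 without 1Rb_M replicate 2 and 683 without 1Rb_M replicate 3. Without 1Rb_M replicates 1 and 2 together, with 1 library left, it was 138 higher and 152 lower.

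Of these 20 windows, 15 lay in the last stretch, from 133 to 140 Mb, which was singled out after the values were seen. There 139 of 140 windows were above 0 in 1Rb_M against 1Rb_P, with a median log2 difference of 0.16, above that of all 144 bands of 10 Mb on the other unjoined autosomes. The log2 enrichment of γH2AX in the stretch was -0.246, -0.249 and -0.243 in 3Rb, 0.043, -0.072 and 0.043 in 1Rb_M, -0.119, -0.134 and -0.191 in 1Rb_P and -0.157 in B6, and the groups did not overlap. In 3Rb against 1Rb_M, 124 of the 140 windows (88.6%) were lower and 0 higher, with a median of -0.26. Of the 144 bands, 7 had a lower median than this. In 3Rb against 1Rb_P only 14 of the 140 windows (10%) were lower and 0 higher, beside 19.6% lower over all members. The median in that comparison was -0.095, with 20 of the 144 bands lower. Without 1Rb_M replicates 1 and 2, the median of the single 1Rb_M library that remains against 1Rb_P was 0.154, with 137 of 140 windows above 0. The median of 3Rb against that library was -0.244, with 1 of 140 windows above 0. The number of calls in the stretch depended on the setting: DESeq2 gave 0, as did leaving out 1Rb_M replicate 1 or 1Rb_P replicate 2 or 3, and the replicate block gave 6, while leaving out 1Rb_M replicate 2 or 3 gave 62 and 73.

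The Cg input and some of the H3.3 comparisons also stood apart in this stretch and in the 10 Mb before it. The median log2 ratio of the 1Rb_M to the Cg input was 0.08 from 123 to 133 Mb and 0.10 from 133 to 140 Mb, above all 144 bands of the other unjoined autosomes, of which the highest was 0.0715. That of the Cg to the B6 input was -0.11 and -0.15, with 8 and 0 of the 144 lower. The 1Rb_M to B6 input ratio was -0.05 and -0.04, with 24 and 30 of the 144 lower. H3.3 in 1Rb against Cg had medians of 0.05 and 0.06 there, above all 144, and in 3Rb against 1Rb of -0.10, below all 144, and -0.06, with 9 lower. In 3Rb against Cg they were -0.05, with 1 lower, and -0.01, with 38 lower. From 123 to 140 Mb 301 of 340 windows (88.5%) were above 0 in the 1Rb_M to Cg input ratio, against 1187 of 2118 (56.0%) from 13 to 123 Mb. Each input is a single library, so these ratios have no replicate check. The part of the input difference in the γH2AX and H3.3 values was not tested. The plot of medians by band shows these changes along the chromosome, together with the lower γH2AX of 3Rb in the first bands. In the bands from 13 and 23 Mb, 113 and 128 of 200 windows were lower than in 1Rb_M (56.5% and 64%). The share was 42.8% over all members and 20.2% over all windows. Of the 144 bands, 16 and 12 had a larger share. The medians were -0.22 and -0.23, with 10 of the 144 lower in each case. These bands held 1.415 and 1.84 genes a window, against 1.114 over all members.

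**Figure D4:**
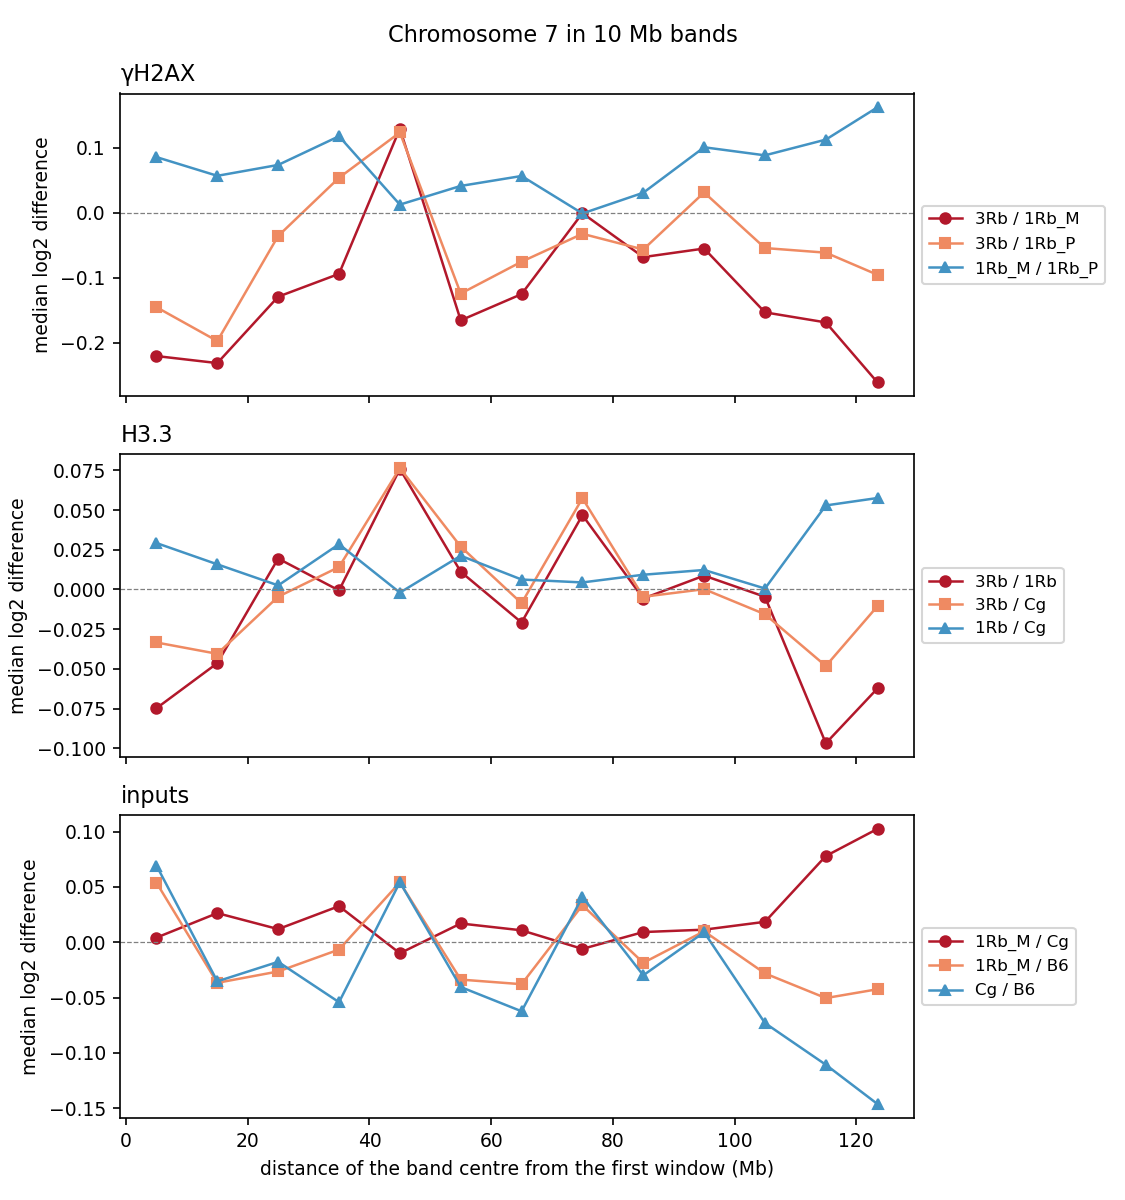
Median log2 difference (y axis) in 10 Mb bands of chromosome 7 (x axis, distance of the band centre from the first window, in Mb) for γH2AX, H3.3 and inputs; each line is 1 comparison and each point the median over a band's windows. γH2AX of 3Rb is below 1Rb_M except in the band from 53 Mb (0.13) and near 0 in the band from 83 Mb, and the input ratio of 1Rb_M to Cg reaches 0.10 in the last band.

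Input ratios of the bands before 123 Mb lay between -0.01 and 0.03 for 1Rb_M to Cg, between -0.04 and 0.05 for 1Rb_M to B6 and between -0.07 and 0.07 for Cg to B6, as medians on the log2 scale. In all 3 input pairs 0 members were past 2-fold, against 0.049% of all windows for 1Rb_M to Cg, 0.081% for 1Rb_M to B6 and 0.0395% for Cg to B6. Past 1.5-fold there were 1 higher and 6 lower members for 1Rb_M to Cg, 7 higher and 6 lower for 1Rb_M to B6 and 1 lower member for Cg to B6, where 0.416%, 0.542% and 0.175% of all windows passed. The largest rise was at 1600014C10Rik, with 1827 counts in the 1Rb_M input and 217 in the B6 input, a scaled ratio of 1.92 (95% interval 1.67 to 2.22), and 871 in the Cg input, a ratio of 1.81 (1.67 to 1.96). These intervals cover counting error only. The medians over all members were 0.02 for 1Rb_M to Cg, -0.01 for 1Rb_M to B6 and -0.03 for Cg to B6 on the log2 scale.

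H3.3 differed between the groups at single places on chromosome 7. In 1Rb against Cg, 35 member windows were higher and 70 lower, and the lower ones are 2.85% of the members, against 2.62% of all windows and 0.977% of those of the other unjoined autosomes. In 3Rb against Cg 64 were higher and 103 lower (4.19% lower, against 6.16% of all windows and 1.62% on the other unjoined autosomes), a split that was 96 and 91 with library totals and 34 and 107 with scaling on autosomes only. In 3Rb against 1Rb 26 were higher and 80 lower (3.25% lower, against 4.02% of all windows and 0.941% on the other unjoined autosomes). The lower share of chromosome 7 was the highest of the 13 unjoined autosomes in all 3 comparisons, which share groups. The next share was close in 1Rb against Cg, at 2.82% on chromosome 4. It was 2.89% on chromosome 17 both in 3Rb against Cg and in 3Rb against 1Rb. Higher windows were 1.08% of all windows in 1Rb against Cg, 3.34% in 3Rb against Cg and 2.08% in 3Rb against 1Rb, and 0.541%, 2.14% and 1.1% on the other unjoined autosomes.

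1600014C10Rik had the largest H3.3 difference, and its level stepped from group to group. In its window (chr7:38150001-38200000) H3.3 was 72.0, 71.7 and 73.2 CPM in 3Rb, 39.6, 43.4 and 45.4 in 1Rb and 24.0, 22.9 and 22.4 in Cg. The groups were far apart, with log2 differences of 1.64 for 3Rb against Cg (adjusted p = 8.77e-23), 0.76 for 3Rb against 1Rb (adjusted p = 2.83e-13) and 0.89 for 1Rb against Cg (adjusted p = 1.38e-13, edgeR). The input ratio of 1Rb_M to Cg in the same window was 0.86 on the log2 scale, close to the H3.3 difference of 1Rb against Cg. In the top window of the Obox region, which itself holds no protein-coding gene (chr7:15200001-15250000), H3.3 was 17.2, 17.3 and 17.4 CPM in 3Rb, 21.9, 21.2 and 21.8 in 1Rb and 14.8, 14.2 and 14.1 in Cg. 1Rb was the highest and Cg the lowest, without overlap (0.58 for 1Rb against Cg, adjusted p = 1.03e-11, edgeR), in a region of 18 windows. The inputs differed by 0.48 there between 1Rb_M and Cg. Smaller rises in 1Rb against Cg were those of the gene models Gm6866 (0.39, with 0.30 between the inputs) and Gm9239 (0.26, with 0.27), of Nlrp4e (0.22, with 0.28) and of the vomeronasal receptors Vmn1r181 and Vmn1r180 (0.24, with 0.15). The calls of Nlrp4e and of the Vmn1r181 window were lost in some of the alternatives. γH2AX in the top window of the Obox region (chr7:15200001-15250000) was 15.2, 15.6 and 16.4 CPM in 3Rb, 27.8, 28.9 and 19.5 in 1Rb_M and 23.2, 22.3 and 23.3 in 1Rb_P, with 3Rb below both.

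At the gene models near 38 Mb both crosses were lower than Cg. In the Gm6605 window (chr7:38450001-38500000) H3.3 was 16.1, 15.4 and 15.5 CPM in 3Rb, 16.1, 14.3 and 15.4 in 1Rb and 24.3, 26.1 and 27.1 in Cg. The crosses overlapped and both lay below Cg, by -0.71 in 3Rb (adjusted p = 1.27e-14) and -0.75 in 1Rb (adjusted p = 1.55e-13, edgeR), in a region of 13 windows for 1Rb. The inputs of 1Rb_M and Cg differed by -0.54 there. The window of Trim5 and Trim34a, antiviral proteins of the TRIM family (chr7:104250001-104300000), had 10.3, 9.8 and 10.1 CPM in 3Rb, 9.9, 10.5 and 9.5 in 1Rb and 14.0, 13.9 and 14.1 in Cg, so both crosses were again below Cg (1Rb -0.49, adjusted p = 5.40e-07, edgeR), and the 1Rb_M and Cg inputs differed by -0.54. Windows of Trim30d in 1Rb (-0.45) and of Trim12a and Trim12c in 3Rb (-0.49) were lower than in Cg too. Sox6, a transcription factor, had a log2 difference of -0.28 in 1Rb against Cg (adjusted p = 0.000369, edgeR), while the inputs of 1Rb_M and Cg differed there by -0.04.

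In other windows H3.3 in 3Rb differed from both 1Rb and Cg. At Cyp2b13 H3.3 was 7.8, 9.0 and 8.6 CPM in 3Rb, 12.6, 12.2 and 12.1 in 1Rb and 11.9, 12.7 and 11.9 in Cg. 1Rb and Cg overlapped and 3Rb lay below both, by -0.53 against 1Rb (adjusted p = 5.62e-08) and -0.51 against Cg (adjusted p = 8.99e-08, edgeR). Psg28, a pregnancy-specific glycoprotein (chr7:18400001-18450000), went the other way, with 14.0, 15.7 and 16.2 CPM in 3Rb, 10.9, 10.2 and 10.9 in 1Rb and 10.9, 10.9 and 10.3 in Cg (0.52 against 1Rb and 0.51 against Cg). γH2AX at Psg28 was 13.5, 14.0 and 13.9 CPM in 3Rb, 13.1, 13.3 and 10.8 in 1Rb_M and 10.8, 10.1 and 10.9 in 1Rb_P. 3Rb was higher than 1Rb_P there (0.38, adjusted p = 0.000259, edgeR) and was not called against 1Rb_M (0.15). Vmn1r173, a vomeronasal receptor, was higher in 3Rb than in Cg by 0.54 (adjusted p = 2.60e-08, edgeR) and higher than in 1Rb by 0.43. Sult2a3, a sulfotransferase, was higher than in 1Rb by 0.53 and than in Cg by 0.47. Against Cg, 3Rb was also lower at the gene model Gm9271 (-0.61), and Scgb2b13-ps was lower, at -0.74. Of 98 vomeronasal windows 10 were higher and 27 lower in 3Rb against Cg, 3 and 10 in 3Rb against 1Rb, and 1 and 9 in 1Rb against Cg. The lower ones are 27.6%, 10.2% and 9.18% of these windows, beside 4.19%, 3.25% and 2.85% of all members and 6.16%, 4.02% and 2.62% of all windows of the genome. An input of 3Rb was not analysed here, so these windows could not be set against the DNA of that cross.

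H3.3 calls between 1Rb and Cg ran with the inputs. Of the 35 windows higher in 1Rb, 34 (97.1%) were also above 0 in the ratio of the 1Rb_M to the Cg input, against 60.5% of all members, and of the 70 lower windows 64 (91.4%) were below 0, against 39.5%. Pearson's r between H3.3 difference and input ratio was 0.93 over the 105 called windows and 0.616 over 2458 members, as a description of windows that share libraries. On the other unjoined autosomes it was 0.94 over 427 called windows and 0.413 over 28434 windows, so the link among called windows was not particular to chromosome 7. The part of input DNA in the H3.3 differences was not tested beyond these values.

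**Figure D5:**
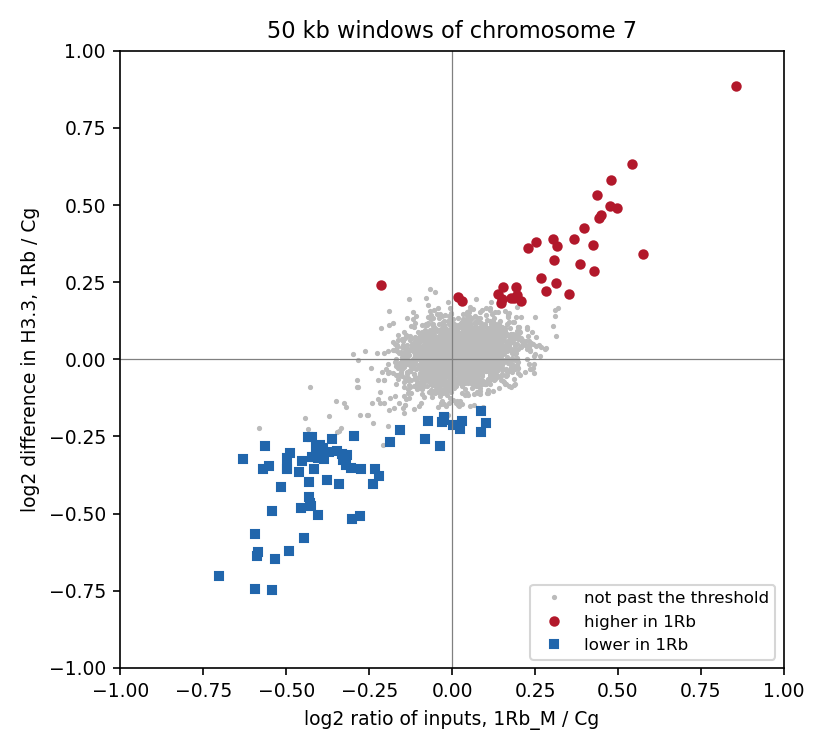
Log2 difference in H3.3 of 1Rb against Cg (y axis) against the log2 ratio of the 1Rb_M to the Cg input (x axis); each point is 1 of 2458 member windows, red where H3.3 was higher in 1Rb, blue where lower and grey where not called. The called windows lie along a rising line, with r = 0.93 over 105 windows.

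Between 3Rb and the 1Rb cross, most windows lower in H3.3 were lower in γH2AX too, although the marks come from different libraries and ages. Of the 80 members lower in H3.3 in 3Rb against 1Rb, 77 (96.25%) were below 0 in γH2AX of 3Rb against 1Rb_M, where 75.4% of all members were, and 75 of 80 in γH2AX of 3Rb against 1Rb_P, where 66.3% were. The windows lower in both marks numbered 69, which is 86.25% of the H3.3 list and 6.56% of the γH2AX list against 1Rb_M. The windows higher in both numbered 13, or 50% of the H3.3 list and 19.1% of the γH2AX list. Of all members, 42.8% were lower and 2.77% higher in γH2AX, and 3.25% were lower and 1.06% higher in H3.3. In the other direction, 818 of the 1052 windows lower in γH2AX (77.8%) were below 0 in H3.3, against 54.0% of all members. Pearson's r between the H3.3 and γH2AX differences was 0.88 over 106 members called in H3.3 and 0.57 over 2458 members. On the other unjoined autosomes it was 0.93 over 577 called windows and 0.55 over 28434 windows. An input of 3Rb was not analysed here, so the part of input DNA in these values was not tested.

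The windows called in H3.3 were rich in genes with near copies. A promoter was counted as having a copy where a run of 50 bases in it also occurs in the promoter of another gene, which holds for 228 of 1958 genes (11.6%) in member windows with a RefSeq promoter. For 1Rb against Cg such genes were 48 of 57 in lower windows (84.2%) and 8 of 19 in higher windows (42.1%), with 9.1% in windows not called. For 3Rb against Cg they were 71 of 92 (77.2%) and 17 of 32 (53.1%), with 7.6% in windows not called, and for 3Rb against 1Rb 22 of 54 (40.7%) and 16 of 26 (61.5%). The promoters of Gm6605, Gm21136, Cyp2b13, Obox1 and their copies printed above are of this kind. In γH2AX of 3Rb against 1Rb_M the share was 94 of 1070 genes in lower windows (8.8%), with 14.2% in windows not called, and 11 of 24 in higher windows (45.8%). For γH2AX of 3Rb against 1Rb_P it was 49 of 675 (7.3%) in lower windows. How reads that match several copies were counted is not given in the sources used here, so values at such windows cannot be assigned to 1 copy.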

How the data were processed

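Whole-testis chromatin was sonicated and precipitated for γH2AX (clone JBW301) or H3.3, and precipitates and inputs were sequenced, per the labels' protocols. The authors deposited whole-number read counts in 50 kb windows, 1 table a library, without normalization. CASAVA 1.8, BWA and mm10 are named in the submitters' processing notes. Filters on duplicate or multiply mapped reads are not given in the sources used here, so windows with gene copies are uncertain.

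The counts of 54520 windows were fitted with edgeR 4.0.16 (R 4.3.3), separately for each mark over its 9 replicated libraries, with TMM scaling, a mean count of at least 10, quasi-likelihood tests and Benjamini-Hochberg adjustment over all windows tested. A window was called at an adjusted p under 0.05. Sums over chromosomes were fitted in the same way. Enrichment was taken over the pooled inputs, and its group differences were compared by exact permutation tests (scipy 1.17.1). Single libraries (γH2AX of B6 and the 3 inputs) gave ratios with counting intervals at 95% and no test of groups; the γH2AX of B6 was made with an antibody labelled Upstate. Input windows needed a summed count of at least 50. The pooled inputs of 1Rb_M, Cg and B6 served all groups. The steps were tested on simulated data.

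Called windows of the same direction that touched, or had 1 other window between them, were joined into regions. The text names, for each comparison and direction, the 6 regions with the smallest adjusted p whose top window moved in a single direction over all pairs of libraries, genes first, and up to 3 windows for each of 14 gene lists. For enrichment it names the highest and lowest windows. A region or window beyond this rule is said to be singled out afterwards. Protein-coding genes, symbols and promoters came from RefSeq on GRCm38.p6, and 1958 genes in member windows had a promoter. The members, the lists and the tests were chosen with earlier results of these data known.

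Replicate numbers are shared by the groups, but the labels do not tie them to a litter, batch or day. Deviations of same-numbered libraries had correlations from -0.587 to 0.227 in H3.3 and from -0.332 to 0.163 in γH2AX, so the numbers were not used as pairs. Replicates of a group differed by more than sampling noise (chi-square per degree of freedom 1.19 to 6.66 over 18 pairs), and each was counted once. Alternatives were DESeq2 1.42.0, library totals, no filter, other filters, scaling on autosomes, a replicate block and leaving out libraries.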

Additional observations from a re-analysis of the deposited data

How the results depend on the processing

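The lower γH2AX of 3Rb against 1Rb_M kept its direction under every alternative run, with 794 lower windows in DESeq2, 1372 with library totals and 1000 with the block, and the sum over the chromosome lay between -0.156 and -0.109 when each library was left out in turn. Higher windows in that comparison were 16 with DESeq2, 9 with library totals and 383 without 1Rb_M replicates 1 and 2 (chosen after seeing the data; the 1 library left is assumed to vary like the other groups). For 3Rb against 1Rb_P, DESeq2 gave 28 higher and 251 lower, library totals 32 higher, and the same 2 libraries left out gave 230 higher and 729 lower. For 1Rb_M against 1Rb_P, higher windows were 0 with DESeq2, 43 with library totals, 39 without windows of unusual input and 138 (with 152 lower) without those 2 libraries. Library totals moved the median of all windows to -0.085 in 3Rb against 1Rb_M and to 0.085 in 1Rb_M against 1Rb_P. H3.3 of 3Rb against Cg had 34 higher windows with scaling on autosomes. The sum over the chromosome in H3.3 of 3Rb against Cg turned to 0.00126 with library totals (adjusted p = 0.953). The sum of 3Rb against 1Rb_P was -0.0629 in DESeq2 (adjusted p = 0.0561) and -0.0788 with library totals (0.332), and that of 1Rb_M against 1Rb_P was 0.0730 in DESeq2 (0.0705), 0.153 with library totals (0.0714) and 0.0146 without the 2 libraries (0.315). Enrichment of 3Rb against 1Rb_M was -0.149 and against 1Rb_P -0.0840 relative to all other autosomes, and -0.0818 against 1Rb_M in windows with 3 or more genes (adjusted p = 0.15). Members past 1.5-fold in inputs numbered 7, 13 and 1, and with a minimum of 10 counts 1 for 1Rb_M to Cg. The cause of these shifts was not tested.

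With the replicate number as a block, H3.3 of 3Rb against Cg had 37 higher windows, γH2AX of 1Rb_M against 1Rb_P had 7 higher, and the sum over the chromosome in 1Rb_M against 1Rb_P was 0.0666 (adjusted p = 0.0552); other counts stayed within 1.5 times and no other call of a sum changed.

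Leaving out each library in turn gave, for H3.3, 24 to 80 higher and 49 to 75 lower windows in 1Rb against Cg, 22 to 95 and 74 to 119 in 3Rb against Cg, and 16 to 58 and 52 to 159 in 3Rb against 1Rb. For γH2AX it gave 31 to 156 higher and 790 to 1303 lower in 3Rb against 1Rb_M, 27 to 192 and 305 to 657 in 3Rb against 1Rb_P, and 0 to 683 and 0 to 38 in 1Rb_M against 1Rb_P. Sums ran from -0.0865 to -0.0579 in 3Rb against 1Rb_P and from 0.0450 to 0.0924 in 1Rb_M against 1Rb_P. H3.3 counts of higher windows moved past 1.5 times without Cg replicate 1 (80 in 1Rb against Cg, 35 in 3Rb against Cg), 3Rb replicate 2 (22 in 3Rb against Cg, 17 in 3Rb against 1Rb), 3Rb replicate 3 (28 in 3Rb against Cg), 1Rb replicate 1 (58 in 3Rb against 1Rb) and 1Rb replicate 3 (16 in 3Rb against 1Rb). Lower windows in 3Rb against 1Rb were 159 without 1Rb replicate 1, 144 without Cg replicate 1 and 52 without 3Rb replicate 2. In γH2AX of 3Rb against 1Rb_M higher windows were 156 without 1Rb_M replicate 2 and 31, 38 and 37 without 3Rb replicates 1, 2 and 3. Against 1Rb_P they were 142 and 192 without 1Rb_M replicates 2 and 3, 45 and 27 without 1Rb_P replicates 1 and 2, and 37, 53 and 44 without 3Rb replicates 1, 2 and 3. Of 1020 refits of 66 named windows 978 kept their side of the threshold, 42 lost it (39 of them in 1Rb_M against 1Rb_P) and 0 reversed. Counting error of up to 6.80% in a median window limits what single windows can show.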
